A study of Mus musculus with 29 samples.

Results

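The genes that encode the subunits of the mitochondrial respiratory chain and of ATP synthase, with a few of their assembly factors and isoforms, were followed in bulk RNA-seq of whole mouse liver. A gene was a member where its name begins as the names of these subunits do (Nduf with a, b, c, s or v; Sdh with a to d; Uqcr; Cox with 4 to 8; Atp5; and the mRNA genes of the mitochondrial genome), where the name does not mark it as a pseudogene with -ps, and where its reads summed to at least 100 over all mice with counts. Of 55421 genes in the count table, 124 had such a name, 9 of these were set aside as pseudogenes by name, 7 fell under the minimum, and 108 were members. The nuclear genome held 95 of them and the mitochondrial genome 13. Members were thus selected on their name and total count, so that total is given here only as a description. Ndufb4c, with 100 reads, and Cox6b2, with 131, lay just inside the minimum, and Cox4i2 with 57, Cox8b with 26, Cox6a2 with 15 and Ndufa11b with 5 lay just outside. Cox7b2, Cox8c and a second entry for Atp5o had 0 reads.

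The study asked whether HDM201, an inhibitor of MDM2 that raises p53, changes aged tissue. Old mice of the C57BL/6J substrain received HDM201 at 10 mg/kg or vehicle by oral gavage daily for 14 days, and young C57BL6/N mice received vehicle; the labels name no engineered allele in any group. By the labels the young mice were 5 months old, the old females 20 months and the old males 24 months. Counts were held for 5 young vehicle, 4 old vehicle and 5 old HDM201 females, and for 4 young vehicle, 4 old vehicle and 5 old HDM201 males. FPKM values covered 29 mice, with 1 more young and 1 more old vehicle male than the 27 with counts. The study left 1 young male out of its analysis for a wound and a suspected infection, and did not name the mouse. Age and substrain cannot be told apart in this design, and the comparisons of HDM201 and of age share the old vehicle mice. Depth was 16485900 to 23570458 reads on genes per mouse. Hepatocyte markers were abundant in every group, at summed levels of 76850 to 159000 CPM per mouse over 8 genes (CPM, read counts relative to library size, scaled by the TMM method of edgeR).

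The respiratory chain sits in the inner mitochondrial membrane. Complex I oxidizes NADH, complex II oxidizes succinate, complex III passes electrons from ubiquinol to cytochrome c, complex IV reduces oxygen, and complex V uses the proton gradient that results to make ATP. The mitochondrial genome encodes the hydrophobic core of complexes I, III, IV and V, and all other subunits, including the whole of complex II, are nuclear. Liver is rich in mitochondria, and its hepatocytes rely on the chain for fat oxidation, urea synthesis and glucose output. Among the nuclear members, 36 were subunits of complex I, 4 of complex II, 8 of complex III, 11 of complex IV and 17 of complex V. A further 13 were assembly factors, 3 were isoforms of complex IV subunits that other tissues favour, and 3 were copies annotated as processed pseudogenes (Ndufb4c, Ndufs6b and Cox6c2). The mitochondrial members comprised 7 subunits of complex I, 1 of complex III, 3 of complex IV and 2 of complex V.

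The counts of 6 mitochondrial members are uncertain, and the sequences of 5 of them are also held in a nuclear copy, which is why they are shown here. Chromosome 1 holds a nuclear copy of part of the mitochondrial genome, annotated as a row of pseudogenes from base 24611535 to base 24616197 of the minus strand (build mm10, GENCODE M21). The opening of mt-Co2 is shown beside its copy Gm28661, with which it shares all 681 aligned bases, and the opening of mt-Nd3 beside its copy Gm28438. Capitals mark the base that differs, T3C, counted from 1 at the first base of mt-Nd3, with the base of mt-Nd3 given first.
mt-Co2: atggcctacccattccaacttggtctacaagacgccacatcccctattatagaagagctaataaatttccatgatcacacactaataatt
Gm28661: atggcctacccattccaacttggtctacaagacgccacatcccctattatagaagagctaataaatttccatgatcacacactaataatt
mt-Nd3: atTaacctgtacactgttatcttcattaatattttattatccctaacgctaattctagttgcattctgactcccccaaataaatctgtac
Gm28438: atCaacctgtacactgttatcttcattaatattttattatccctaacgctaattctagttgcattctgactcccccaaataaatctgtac
The copies of mt-Co2 (681 aligned bases), mt-Atp6 (678), mt-Co3 (783) and mt-Nd4l (294) had 0 mismatches, and that of mt-Nd3 had 1 in 345 bases. A read of 50 bases would match another annotated gene at 98.0% to 100% of the positions in these 5 genes, against 62.2% in mt-Nd4, 51.1% in mt-Co1 and 0 to 8.19% in the other 6 mitochondrial members. The count and FPKM tables differed widely for these genes. Per length, mt-Co2 reached 0.516% of the level of mt-Co1 in the counts and 46.0% in FPKM, while mt-Cytb, which has no copy there, reached 52.1% and 49.8%. The gene mt-Atp8, which lies between mt-Co2 and mt-Atp6 and overlaps the latter, showed the same gap, at 0.175% in the counts and 116% in FPKM. Counts of mt-Co2, mt-Co3, mt-Atp6, mt-Atp8, mt-Nd3 and mt-Nd4l, between 1103 and 20652 reads over all mice, are therefore uncertain as levels of these transcripts. In the counts, but not in FPKM, mt-Co1, mt-Cytb, mt-Nd1, mt-Nd2, mt-Nd4, mt-Nd5 and mt-Nd6 carried nearly all of the mitochondrial signal. The handling of reads that map to several places was not stated, and its part in the gap was not tested.

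**Figure D1:**
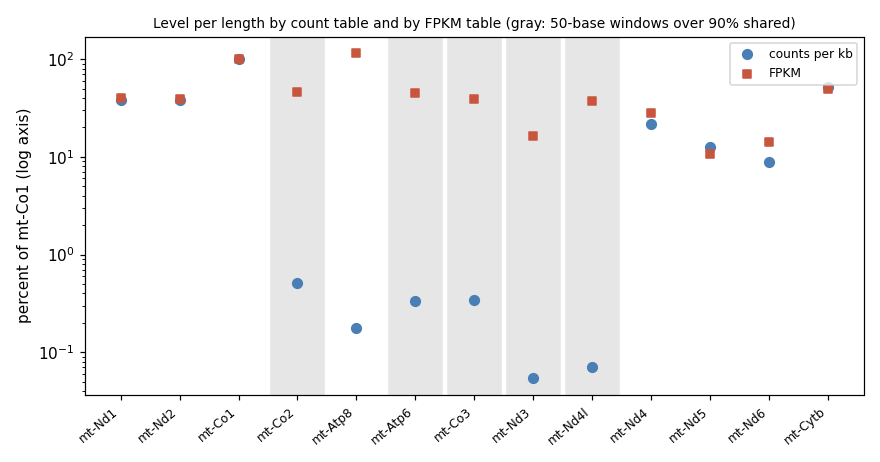
Level per length of each of the 13 mitochondrial members as a percent of mt-Co1, on a log axis, from the mean over 27 mice of counts per kb (circles) and of FPKM (squares). Gray bands mark the genes in which over 90% of 50-base windows occur in another annotated gene. The 2 measures nearly coincide for mt-Cytb (52.1% and 49.8%) and lie far apart for mt-Co2 (0.516% and 46.0%).

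Per length of exon sequence, the 7 mitochondrial members without the uncertain counts stood above all other members, and the 6 with uncertain counts lay between 6.20 and 59.3 CPM per kb. The mean over all mice was 11500 CPM per kb for mt-Co1, a catalytic subunit of complex IV, 5989 for mt-Cytb, the core of complex III, and 4423 for mt-Nd1, a membrane subunit of complex I. The highest nuclear members were Cox6a1 with 368.6 CPM per kb, Atp5a1 with 302.0 and Atp5b, the catalytic beta subunit of ATP synthase, with 256.9. The median of the nuclear subunits was 44.7 CPM per kb in complex I, 94.8 in complex II, 112 in complex III, 104 in complex IV and 63.3 in complex V. The lowest members per length were Cox6b2, the testis isoform, at 0.230 CPM per kb, and the copies Ndufb4c and Ndufs6b at 0.497 and 1.19. The liver isoform Cox7a2 had 95.8 CPM per kb and Cox7a1, the isoform of heart and skeletal muscle, 2.10. Lengths are unions of annotated exons, which overstate the length of genes with long minor transcripts.

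The share of reads on the mitochondrial members separated young from old females without overlap. It was 4.49% to 5.02% of gene counts in the 5 young females, 3.03% to 3.47% in the 4 old vehicle females and 2.75% to 3.57% in the 5 old HDM201 females. The group means were 4.74% ± 0.209 (SD, n = 5), 3.22% ± 0.186 (n = 4) and 3.14% ± 0.312 (n = 5). Both old female groups overlapped each other and lay below every young female. In males the share was 4.51% to 5.42% in young vehicle mice, 3.69% to 4.63% in old vehicle mice and 3.30% to 4.30% in old HDM201 mice, and neighbouring groups overlapped. The nuclear members took 1.18% to 1.35% of counts in young females and 1.00% to 1.16% in old vehicle females, again without overlap, and 1.05% to 1.29% in young and 1.01% to 1.20% in old vehicle males, which overlapped. The mitochondrial members with uncertain counts add little to these shares. The shares are descriptions and were not tested.

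**Figure D2:**
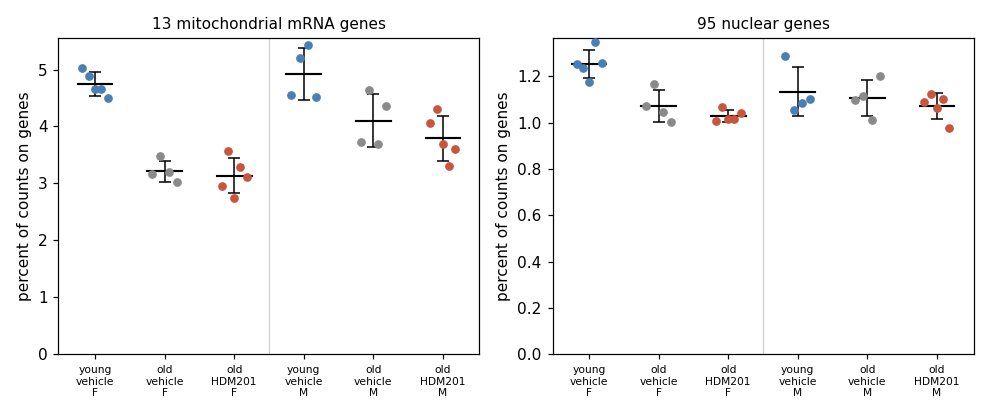
Percent of all gene counts on the 13 mitochondrial members (left) and on the 95 nuclear members (right). Each point is a mouse, and bars give the group mean and SD of 4 or 5 mice in the 6 groups. Old females (3.03% to 3.47% with vehicle) lie below young females (4.49% to 5.02%) on the left, and neighbouring male groups overlap.

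Old vehicle females had lower transcripts of most of the chain than young vehicle females. By the quasi-likelihood test of edgeR at an adjusted p under 0.05, 11 of 13 mitochondrial members and 62 of 91 nuclear members tested were lower. Over all 14233 genes tested 31.8% were called, and 2392 of these 4530 genes were higher. No member was called higher (edgeR 0, with 0 at an unadjusted p under 0.05 in the higher direction and 0 by DESeq2), and only Ndufa7 and Atp5e had a log2 fold change above 0. The groups did not overlap for 11 mitochondrial and 58 nuclear members, and for 25.8% of all genes tested. The median log2 fold change was -0.77 over the mitochondrial and -0.35 over the nuclear members, against 0.01 over all genes tested. In bulk liver, fewer cells of a type and less RNA per cell cannot be told apart.

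Of the mitochondrial members, mt-Nd6 differed most. This subunit of complex I is the only mRNA transcribed from the light strand of the mitochondrial genome. The other mitochondrial members lie on the opposite strand, and the strand setting of the counts is not given. Whether reads from the opposite strand entered its count was not tested. It measured 802, 769, 688, 634 and 628 CPM in young females and 316, 329, 303 and 303 CPM in old vehicle females. Every old female lay below every young female (log2 fold change -1.15, SE 0.09, adjusted p = 1.01e-05 by edgeR). Its neighbour mt-Cytb measured 10261, 8439, 9004, 9359 and 9198 CPM in young and 4889, 5314, 4495 and 5587 CPM in old vehicle females, also without overlap, and fell by 0.85 on the log2 scale (SE 0.10, adjusted p = 0.000115 by edgeR). The catalytic subunit mt-Co1 measured 20505 to 23843 CPM in young and 13218 to 15066 CPM in old vehicle females and fell by 0.61 (SE 0.10, adjusted p = 0.000806).

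The other complex I genes of the mitochondrial genome were not lowered equally. On the log2 scale mt-Nd4 fell by 0.98 (SE 0.09), mt-Nd5 by 0.82 (SE 0.10), mt-Nd2 by 0.61 (SE 0.09) and mt-Nd1 by 0.35 (SE 0.10). All 4 were called, and in each the old vehicle females lay below the young females. Of the genes with uncertain counts, mt-Co2 (-0.77), mt-Co3 (-0.77), mt-Atp6 (-0.85) and mt-Atp8 (-0.89) were called lower, and mt-Nd3 (-0.22, adjusted p = 0.561) and mt-Nd4l (-0.14, adjusted p = 0.616) were not. On FPKM mt-Nd3 was called lower by limma (-0.38, adjusted p = 0.0217, and -0.53, adjusted p = 0.00740, after TMM scaling). For mt-Atp8 the FPKM table gave the opposite direction, with 12920 to 16820 in young females and 19350 to 20710 in old vehicle females, so that no direction can be given for it.

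Among nuclear genes the largest falls were in an assembly factor of complex I and in subunits of complexes I, II and V. Ndufaf4, an assembly factor of complex I, had 36.0, 37.0, 29.7, 24.98 and 39.8 CPM in young and 17.0, 21.6, 17.5 and 17.5 CPM in old vehicle females, a log2 fold change of -0.84 (SE 0.13, adjusted p = 0.000763). Atp5k, the small e subunit of ATP synthase that takes part in its dimers, had 32.7, 28.9, 30.9, 35.1 and 34.4 CPM against 19.4, 18.9, 18.04 and 19.2 CPM (-0.76, SE 0.08, adjusted p = 6.00e-05). Neither gene had any overlap between the groups. Sdhb, the iron-sulfur subunit of complex II, had 267, 256, 207, 275 and 265 CPM against 149, 174, 156 and 145 CPM (-0.68, SE 0.10, adjusted p = 0.000384), again with every old female below every young one. Ndufs6 (-0.64, SE 0.12) and Ndufa1 (-0.63, SE 0.12), accessory subunits of complex I, completed the 5 largest falls among nuclear members whose groups did not overlap.

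By complex, 26 of 36 nuclear subunits of complex I, 4 of 4 of complex II, 5 of 8 of complex III, 10 of 11 of complex IV and 12 of 17 of complex V were called lower, with median log2 fold changes of -0.37, -0.27, -0.26, -0.47 and -0.28. Ndufs1, which holds iron-sulfur centres of complex I, measured 130, 148, 118, 108 and 134 CPM in young and 86.2, 97.2, 93.5 and 88.5 CPM in old vehicle females, without overlap (-0.46, SE 0.10). The FMN-binding Ndufv1 gave -0.32 (SE 0.07), the flavin subunit Sdha -0.25 (SE 0.08), the Rieske protein Uqcrfs1 -0.26 (SE 0.08), Cox5a -0.36 (SE 0.08) and Atp5b -0.40 (SE 0.08), and all were called. Uqcrc1, a core protein of complex III, was called (-0.26, SE 0.08, adjusted p = 0.0259) although the groups overlapped, with 290 to 344 CPM in young and 256 to 292 CPM in old vehicle females.

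In complex IV most of the liver forms were called. Cox4i1, the ubiquitous subunit 4, was the only nuclear subunit of complex IV that missed the threshold (-0.18, SE 0.09, adjusted p = 0.147), with 342 to 447 CPM in young and 308 to 346 CPM in old vehicle females, which overlapped. The liver form Cox7a2 fell from 87.0 to 114 CPM down to 66.3 to 75.2 CPM (-0.53, SE 0.09, adjusted p = 0.00120). The forms Cox6a1 (-0.41), Cox6b1 (-0.47), Cox7b (-0.60), Cox8a (-0.50) and Ndufa4 (-0.42), which is now counted with complex IV, were also called lower. Cox7a1 (-0.16, adjusted p = 0.636), Ndufa4l2 (-0.35, adjusted p = 0.288) and the supercomplex factor Cox7a2l (-0.12, adjusted p = 0.287) were not called. Of 13 assembly factors among the members, 5 were called lower (38.5%) and 0 higher, and all 13 had a log2 fold change below 0 (median -0.25). The 31.8% of all genes called counts both directions, and 2392 of those 4530 genes were higher.

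**Figure D3:**
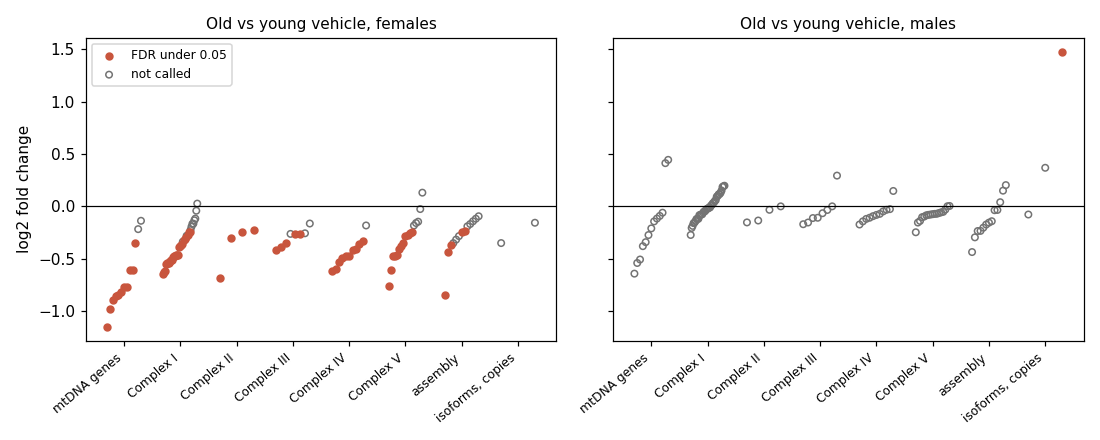
Log2 fold change of each member, old over young vehicle mice, in females (left) and males (right), by complex, with genes of the mitochondrial genome (mtDNA) apart. Filled points passed an adjusted p of 0.05 by edgeR. In females 73 members are filled, all below 0; in males only Cox7a1 is filled, at 1.48.

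The same comparison in males called 1 of 92 nuclear and 0 of 13 mitochondrial members by edgeR, against 3.69% of all 13755 genes tested (2.76% higher). At an unadjusted p under 0.05, which 21.9% of all genes reached, 4 mitochondrial and 5 nuclear members were lower. DESeq2 called 4 members lower, mt-Cytb, mt-Nd5, Ndufs1 (-0.27, adjusted p = 0.0169) and the complex I assembly factor Ndufaf1 (-0.44, adjusted p = 0.0160), of which Ndufaf1 is named after its value was seen. The median log2 fold change was -0.21 over the mitochondrial and -0.07 over the nuclear members, and -0.01 over all genes. By limma on log2(FPKM + 1) of all mice the nuclear median was 0.12, with all genes at 0.10, and -0.03 after TMM scaling. After TMM scaling of the mice with counts alone it was -0.09. In young males mt-Cytb measured 9143, 9520, 11862 and 8639 CPM and in old vehicle males 6431, 7530, 6449 and 6387 CPM, which did not overlap (-0.54, SE 0.15, adjusted p = 0.0778 by edgeR). For mt-Nd6 the young males had 746, 850, 780 and 673 CPM and the old vehicle males 528, 685, 447 and 673 CPM, which overlapped (-0.38, SE 0.15, adjusted p = 0.171).

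The gene called in males was Cox7a1, which rose. It had 0.783, 1.14, 0.652 and 0.590 CPM in young and 2.51, 2.67, 2.18 and 1.38 CPM in old vehicle males, without overlap (1.48, SE 0.31, adjusted p = 0.0314 by edgeR). The gene was sparse, with 567 reads over all 27 mice, and the call was kept in 2 of 8 fits that left out a mouse, without old vehicle male 5 and without young vehicle male 2. The old vehicle male without counts had the lowest FPKM of its group, 3.65 against 7.74 to 16.3 in the other 4, and limma on log2(FPKM + 1) of all mice did not call the gene. The nuclear member that limma called there was the copy Ndufs6b (1.67, adjusted p = 0.0455), which had 211 reads over all mice. Summed markers of skeletal muscle, which uses this isoform, were 0.318 to 1.27 CPM in young and 0.747 to 1.05 CPM in old vehicle males. Of these, Acta1 and Myh4, which encode muscle actin and myosin, were at 0 in all 4 old vehicle males. Mylpf, on the same list, measured 0.632 to 1.047 CPM in these mice. Brown fat also uses Cox7a1, and its markers summed to 0 to 0.0908 CPM in young and 0 to 3.72 CPM in old vehicle males. Of these, Ucp1, its defining gene, and Dio2 were at 0 in the 4 old mice. Cidea measured 3.71 CPM in old vehicle male 5 and 0 to 0.058 CPM in the other old vehicle males. Zic1 measured 0.116 and 0.115 CPM in old vehicle males 3 and 4, and 0 to 0.0454 CPM in young males. The part of either tissue in the level of Cox7a1 was not tested.

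The difference between the sexes in the age effect was tested as an interaction. It was called by edgeR for 8 of 92 nuclear and 3 of 13 mitochondrial members, all with a lower log2 fold change in females than in males, against 3.92% of 14721 genes tested (1.90% in that direction). Ndufb2, an accessory subunit of complex I, was the clearest. It measured 48.2, 44.3, 47.7, 55.8 and 52.6 CPM in young and 32.2, 35.8, 34.3 and 32.5 CPM in old vehicle females, but 51.2, 38.9, 38.8 and 38.6 CPM in young and 44.0, 44.2, 44.8 and 47.8 CPM in old vehicle males. The female groups did not overlap. The male groups did, through the young male at 51.2 CPM, and every old vehicle male lay above the rest of the young males. The interaction was -0.65 (SE 0.13, adjusted p = 0.0141 by edgeR). The other nuclear members were Cox7a1 (-1.62, SE 0.36), Ndufs6 (-0.83, SE 0.22), Ndufa1 (-0.75, SE 0.19), Atp5k (-0.69, SE 0.17), Ndufb11 (-0.51, SE 0.14), Ndufs4 (-0.48, SE 0.12) and Atp5md (-0.43, SE 0.12).

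For Ndufs4, whose loss impairs complex I in mice and in people, old vehicle females had 37.6, 40.2, 39.9 and 36.3 CPM below the 49.1 to 64.3 CPM of young females, and old vehicle males had 45.7 to 53.7 CPM within the 46.9 to 54.9 CPM of young males save for 2 mice at 45.7 and 45.9. The mitochondrial members were mt-Nd6 (-0.76, SE 0.17, adjusted p = 0.0259), mt-Nd4 (-0.62, SE 0.16, adjusted p = 0.0353) and mt-Co2 (-1.20, SE 0.32, adjusted p = 0.0436), whose count is uncertain and whose old vehicle male 5 stood at 107 CPM against 36.3 to 52.9 in the other 3. Ndufb2 was called in all 17 fits that left out a mouse, Cox7a1 in 16 and mt-Nd6 in 14, and the other 8 in 2 to 7. The number of members called rose to 28 nuclear and 3 mitochondrial without young vehicle male 1 and fell to 1 and 0 without old vehicle female 4.

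**Figure D4:**
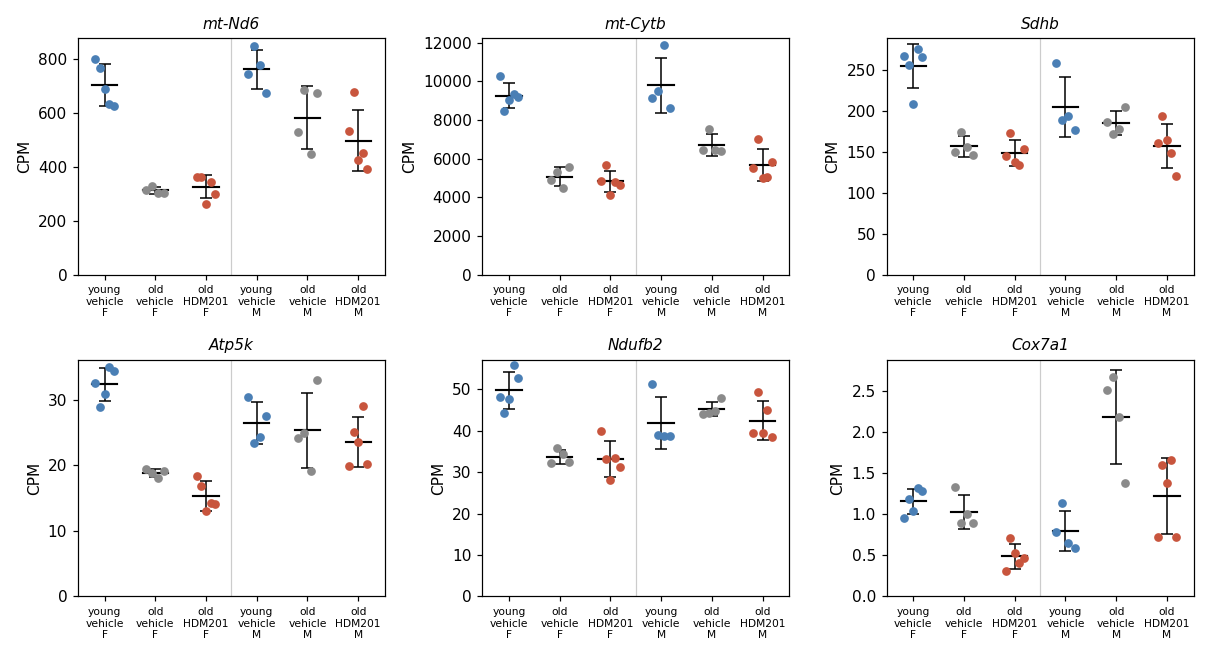
TMM-scaled CPM per mouse of mt-Nd6, mt-Cytb, Sdhb, Atp5k, Ndufb2 and Cox7a1 in the 6 groups, with group mean and SD of 4 or 5 mice. In the panel of Ndufb2 the old vehicle females (32.2 to 35.8 CPM) lie below the young females (44.3 to 55.8 CPM). The old vehicle males (44.0 to 47.8 CPM) lie below the highest young male (51.2 CPM) and above the rest of the young males.

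HDM201 moved few members in old females. Of 92 nuclear members tested, 1 was called lower and 0 higher, and of 13 mitochondrial members 0 were called by edgeR, where 5.25% of all 14445 genes were called and 2.90% were lower. DESeq2 called the same numbers, and at an unadjusted p under 0.05 there were 7 nuclear and 0 mitochondrial members, against 22.5% of all genes. The median log2 fold change was -0.06 over the nuclear and -0.09 over the mitochondrial members. For mt-Nd6, which had been lower with age, the HDM201 females measured 364, 362, 264, 342 and 300 CPM, around the 303 to 329 CPM of vehicle females (0.05, SE 0.10, adjusted p = 0.790). For Sdhb they measured 145, 173, 137, 134 and 153 CPM against 145 to 174 CPM, which overlapped (-0.08, SE 0.09, adjusted p = 0.609).

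The member called was again Cox7a1, and here it fell. Old vehicle females had 1.32, 0.896, 0.996 and 0.896 CPM and old HDM201 females 0.312, 0.709, 0.531, 0.401 and 0.472 CPM, without overlap (-1.08, SE 0.27, adjusted p = 0.0430 by edgeR). The call was kept in 1 of 9 fits that left out a mouse, that without old HDM201 female 2 (adjusted p from 0.0334 to 0.116), and 3 nuclear members were called without old HDM201 female 1. Summed markers of skeletal muscle were 0.851 to 1.383 CPM in old vehicle and 0.624 to 1.145 CPM in old HDM201 females. Of these, Acta1 was at 0 in all 4 vehicle mice and in 3 of 5 HDM201 mice. Mylpf was above 0 in every mouse, at 0.717 to 1.328 CPM with vehicle and 0.5455 to 1.041 CPM with HDM201. The part of muscle in the level of Cox7a1 was not tested. Atp5k (-0.31, SE 0.10, adjusted p = 0.0899) and Ndufaf4 (-0.35, SE 0.11, adjusted p = 0.0786) were both below vehicle on average in old HDM201 females, but their groups overlapped.

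In old males edgeR called 0 of 93 nuclear and 0 of 13 mitochondrial members, among 0.00709% of 14109 genes called in all. At an unadjusted p under 0.05, 15 nuclear and 3 mitochondrial members were lower, against 12.1% of all genes in either direction, and DESeq2 called 1 of each, Ndufaf4 and mt-Atp6. The log2 fold changes nonetheless lay on the same side for most members: 100 of 106 were below 0 in the counts, where 52.8% of all genes were above 0. The median was -0.13 over the nuclear and -0.25 over the mitochondrial members. This did not hold in the FPKM of all mice, which add old vehicle male 1: by limma on log2(FPKM + 1) the medians were -0.03 and 0.03, and after TMM scaling -0.05 and -0.004, while after TMM scaling of the mice with counts alone they were -0.12 and -0.23. Of 8 hepatocyte markers 7 were also below 0 (median -0.20), with sums of 110100 to 159000 CPM in vehicle and 76850 to 152000 CPM in HDM201 males, and all 6 stellate and all 5 cholangiocyte markers were above 0 (medians 0.40 and 0.55). Erythroid markers summed to 286 to 1141 CPM in vehicle and 101 to 206 CPM in HDM201 males. None of these markers was called, and their part in the levels of the members was not tested. Ndufaf4 had 36.9, 38.5, 33.8 and 40.1 CPM in vehicle and 31.1, 25.5, 24.99, 29.2 and 26.7 CPM in HDM201 males, without overlap (-0.43, SE 0.09, adjusted p = 0.175 by edgeR). Cox7a1 measured 0.726, 1.60, 1.38, 1.66 and 0.718 CPM in HDM201 males, overlapping the 1.38 to 2.67 CPM of vehicle males (-0.83, SE 0.32, adjusted p = 0.353). The interaction of sex and HDM201 was called by edgeR for 0 of 106 members, with 2 nuclear and 1 mitochondrial member at an unadjusted p under 0.05 (18.5% of all genes) and 0 by DESeq2, while 0.107% of 14974 genes were called.

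**Figure D5:**
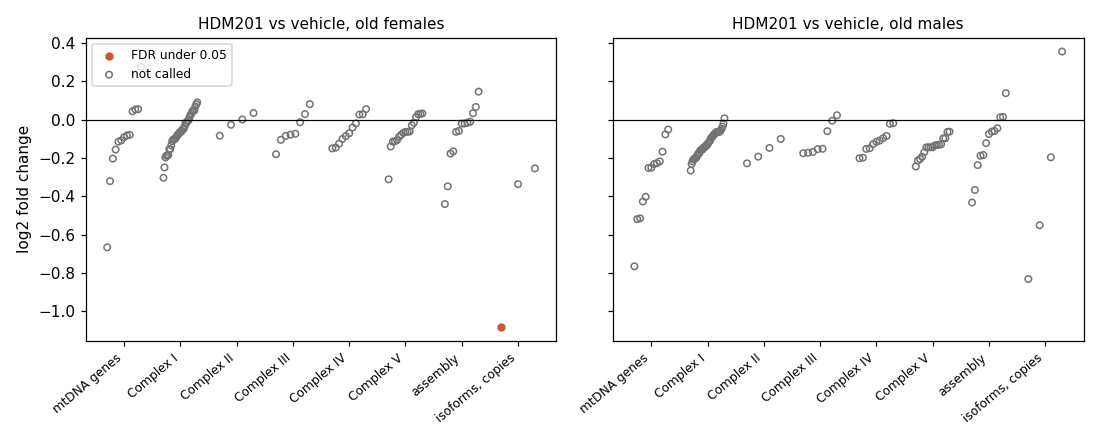
Log2 fold change of each member, HDM201 over vehicle, in old females (left) and old males (right), by complex, with genes of the mitochondrial genome (mtDNA) apart. Filled points passed an adjusted p of 0.05 by edgeR; the only one is Cox7a1 in females at -1.08. In males 100 of 106 points lie below 0.

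Young females and young males, of the same age and substrain, showed no called member. By edgeR 0 of 92 nuclear and 0 of 13 mitochondrial members passed, where 10.5% of 13875 genes did, and DESeq2 called 1, Ndufb8. At an unadjusted p under 0.05, which 27.6% of all genes reached, there were 9 nuclear members, 8 of them higher in females. Of the nuclear members 79 of 92 were above 0, as were 49.5% of all genes, with a median log2 fold change of 0.13 (female over male), while for the mitochondrial members 3 of 13 were above 0 and the median was -0.12. The mitochondrial median turned to 0.12 by limma on log2(FPKM + 1) of all mice, which add young vehicle male 5, and to 0.07 after TMM scaling. It was -0.09 after TMM scaling of the mice with counts alone. Young vehicle male 5 had the lowest mt-Cytb FPKM of its group, 4743 against 8103 to 10460 in the others. Whether it is the young male that the study left out is not stated. For Ndufb8, an accessory subunit of complex I named after its value was seen, the difference was 0.39 (SE 0.12, adjusted p = 0.0626 by edgeR). Leaving out young vehicle male 1 gave 9 nuclear members called.

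Other genes of mitochondrial function were counted from lists, beside the 31.8% of all genes called with age in females. With age in females 12 of 19 genes of the citric acid cycle and pyruvate dehydrogenase were lower, among them Pdhb of pyruvate dehydrogenase (-0.87, SE 0.12, adjusted p = 0.000384). Cycs, which encodes cytochrome c, gave -0.55 (SE 0.11) and Cyc1, the cytochrome c1 of complex III, -0.42 (SE 0.08), and both were called. Of 21 genes for cytochrome c and coenzyme Q, 11 were lower and 1 higher. Of 78 mitochondrial ribosomal proteins 19 were lower and 2 higher, 26.9% in all, with a median log2 fold change of -0.15.

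Of 42 further assembly factors tested, 12 were lower and 3 higher (35.7%), of 30 genes of mitochondrial DNA maintenance and expression 9 were lower and 2 higher (36.7%), both near the share of all genes, and of 25 genes of mitochondrial stress and quality control 12 were lower and 2 higher. Among 13 regulators of mitochondrial biogenesis 4 were lower and 0 higher (30.8%), and 11 had a log2 fold change below 0. The share of all genes counts both directions. The 4 included the coactivators Ppargc1b (-1.28, SE 0.28, adjusted p = 0.00445) and Ppargc1a (-0.62, SE 0.18, adjusted p = 0.0175). Tfam, which packages and transcribes mitochondrial DNA, was not called (-0.08, SE 0.07, adjusted p = 0.413). Of 9 targets of p53 that act in mitochondria 2 were higher and 2 lower; Sco2, which delivers copper to complex IV, rose by 1.08 (SE 0.23, adjusted p = 0.00408) and Gls2 gave -0.44 (SE 0.09). In males 1 gene each of the citric acid cycle (Idh3a), coenzyme Q (Coq3), mitochondrial DNA (Polg) and ribosomal (Mrps31) lists was lower. With HDM201 in females Dlat of pyruvate dehydrogenase (0.48, SE 0.10, adjusted p = 0.0197) and Coq7 (0.34, SE 0.09, adjusted p = 0.0469) rose, Mrpl14 and Mrpl4 fell, and Sco2 was not called (-0.25, adjusted p = 0.487).

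Markers of other cells moved in the same comparison in females. Of 12 macrophage and Kupffer cell markers 11 were higher in old vehicle females, and their sum was 242 to 368 CPM in young and 390 to 824 CPM in old vehicle females. B and plasma cell markers summed to 15.9 to 24.0 and 124 to 193 CPM. Of 8 hepatocyte markers 2 were lower, and their sums overlapped, at 103800 to 111600 in young and 96010 to 122100 CPM in old vehicle females. With HDM201 in females 8 of 12 macrophage markers were lower, at a sum of 244 to 402 CPM. No marker on these 3 lists was at 0, and their part in the levels of the members was not tested. In old vehicle males 3 of 11 macrophage and 5 of 6 B and plasma cell markers tested were higher than in young males. Nnt, a proton-pumping transhydrogenase that is deleted in part in C57BL/6J, was low in both ages of females. It measured 2.24 to 4.42 CPM in young and 2.19 to 2.92 CPM in old vehicle females, which overlapped although the young mice are given as C57BL6/N. In males it was lower in old than in young vehicle mice without overlap (-0.59 on the log2 scale), and it was not called.

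The promoters of the nuclear members were searched for motifs of factors known for respiratory genes, which the choice of members did not use. Sequences from RefSeq (GRCm38.p6, from 250 bases before to 50 bases after the start) matched 78 of 95 nuclear members. On either strand, the NRF1 core GCGCATGC occurred in 15.4% of these genes and in 3.05% of all 27025 genes with a promoter, and the YY1 site AAGATGGC in 14.1% against 3.19%. The GABP site CCGGAAGT occurred in 6.41% against 4.31% and the SP1 box GGGCGG in 48.7% against 38.2%. Among the 53 members with a promoter that were called lower with age in females the NRF1 core occurred in 6, and among the 24 tested and not called in 6. For YY1 these numbers were 8 of 53 and 3 of 24. No test was made of these shares, and a match is a match of letters only.

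For NRF1, GABP and YY1 the called member with the largest fall whose match lies in the 250 bases before the start is printed, 5′ to 3′ in the direction of the gene, with the match in capitals, and Cox7a1, which behaved unlike the rest, is added for contrast. Ndufaf4 (chr4:24897833-24898082, plus strand) carries 2 overlapping NRF1 matches, 1 on each strand, Uqcrh of complex III (chr4:116075071-116075320, minus strand) a GABP match, and Atp5j of ATP synthase (chr16:84834977-84835226, minus strand, the second of its listed promoters) a YY1 match. In Cox7a1 (chr7:30183921-30184170, plus strand) none of the 3 was found. The same was true of members called lower with age in females, among them Cox5b, Ndufb3 and Ndufb2.
Ndufaf4: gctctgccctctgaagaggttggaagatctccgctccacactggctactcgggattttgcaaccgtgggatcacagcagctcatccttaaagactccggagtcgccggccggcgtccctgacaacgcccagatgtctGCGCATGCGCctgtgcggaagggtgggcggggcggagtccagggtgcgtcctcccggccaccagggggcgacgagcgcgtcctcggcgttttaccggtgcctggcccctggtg
Uqcrh: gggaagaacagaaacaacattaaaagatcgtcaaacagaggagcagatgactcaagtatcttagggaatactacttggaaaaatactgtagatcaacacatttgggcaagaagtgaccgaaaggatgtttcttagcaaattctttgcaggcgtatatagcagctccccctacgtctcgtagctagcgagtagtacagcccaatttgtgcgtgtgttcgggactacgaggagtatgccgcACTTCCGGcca
Atp5j: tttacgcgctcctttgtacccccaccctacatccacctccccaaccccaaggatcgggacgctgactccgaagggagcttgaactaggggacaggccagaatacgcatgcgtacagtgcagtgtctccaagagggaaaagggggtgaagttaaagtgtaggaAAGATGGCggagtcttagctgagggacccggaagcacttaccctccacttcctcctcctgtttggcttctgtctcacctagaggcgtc
Cox7a1: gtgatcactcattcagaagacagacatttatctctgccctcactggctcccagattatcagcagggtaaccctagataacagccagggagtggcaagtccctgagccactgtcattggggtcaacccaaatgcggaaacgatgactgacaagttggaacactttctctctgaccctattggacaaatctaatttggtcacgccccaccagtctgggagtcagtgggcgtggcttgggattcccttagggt
Uqcrh fell by 0.38 with age in females (SE 0.08) and Atp5j by 0.24 (SE 0.08), beside the 0.84 of Ndufaf4.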

How the data were processed

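Total RNA of whole liver was sequenced from polyA-selected libraries. Per the study's methods, STAR placed the reads on mm10, HTSeq gave the authors' counts per gene, and Cufflinks gave FPKM (fragments relative to transcript length and library size). Versions, annotation and strand setting are not given in the sources used here. The deposited counts are whole reads per gene for 27 mice, with no normalization, and the deposited FPKM values, blank entries of which were read as 0, cover 29 mice; Cox4i1 had no FPKM value. The FPKM values of a mouse summed to 6010507 in old HDM201 male 5, 3363195 in old HDM201 female 1 and 1153253 in young vehicle female 5. In the other mice they summed to 690769 to 843180. The part of these sums in the FPKM fits was not tested. Depth was 16485900 to 23570458 reads, median 19149235, which limits genes such as Cox7a1, mt-Nd3 and mt-Nd4l.

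Each comparison used its own groups in edgeR 4.0.16 (R 4.3.3): filterByExpr (minimum count 10, minimum total 15), TMM scaling, the quasi-likelihood test and Benjamini-Hochberg adjustment over all genes tested, called under 0.05. Replicates are separate mice. DESeq2 1.42.0, limma 3.58.1 on log2(FPKM + 1) and log2(FPKM + 0.1) where FPKM averaged 0.1 or more, other scalings and filters, a replicate block and the omission of each mouse were alternatives. TMM scaling of FPKM was added after seeing the data. Fits were also run on simulated data with known changes, the outcome of which is not given here. Log2 fold changes of FPKM understate changes of low genes.

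Members and lists were chosen with earlier results of these data known. Named were members called where 10 or fewer, otherwise the 5 largest falls without overlap among nuclear members, all mitochondrial members, tissue isoforms, core subunits, extremes of level and, from other lists, up to 2 genes called with the smallest adjusted p besides Nnt, Sco2, Ppargc1a, Tfam, Cycs and Cyc1. Annotation was GENCODE M21, in which all 108 members matched. The NRF1 motif was shortened to a core of 8 letters after a form of 10 letters had been counted. The values of 1 core subunit are not reported here.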

Additional observations from a re-analysis of the deposited data

Results flagged for a closer look

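In 5 of 102 groups of 4 or 5 mice checked, 1 mouse lay far from the others by Dixon's test, which chance gives in about 1 of 20 groups. These were mt-Cytb in old vehicle males (a mouse at 7530 CPM), Ndufaf4 in old vehicle females (21.6 CPM), Sdhb in young vehicle females (207 CPM, the lowest), Ndufb2 in young vehicle males (51.2 CPM, the highest) and Uqcrc1 in young vehicle females (289 CPM, the lowest).

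The age effect differed between females and males, by the interaction term of edgeR, for 11 members, with log2 differences of -1.62 for Cox7a1, -1.20 for mt-Co2, -0.83 for Ndufs6, -0.76 for mt-Nd6, -0.75 for Ndufa1, -0.69 for Atp5k, -0.65 for Ndufb2, -0.62 for mt-Nd4, -0.51 for Ndufb11, -0.48 for Ndufs4 and -0.43 for Atp5md. The old males were older than the old females, so sex and the span of age cannot be told apart here.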

How the results depend on the processing

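The fall with age in females kept its direction under every alternative run for the nuclear and mitochondrial medians. Its nuclear count of 62 became 40 at an adjusted p of 0.01, 34 with limma on log2(FPKM + 1) and 36 on log2(FPKM + 0.1), of which 35 were lower, and 46 to 64 when a mouse was left out (mitochondrial 10 to 11). Of these, 46 nuclear and 9 mitochondrial members were called in all 9 such fits. mt-Atp8 reversed, to 0.45 in both FPKM fits and 0.29 in both fits after TMM scaling. The nuclear call for HDM201 in females became 0 without a filter, in a joint fit of all groups, at 0.01, with the replicate block and in all 4 limma fits (0 to 3 without a mouse). DESeq2 called 1 nuclear and 1 mitochondrial member for HDM201 in males. For age in males the nuclear count was 3 with DESeq2, 2 without a filter, 4 in the joint fit, and 0 at 0.01, with the block and on log2(FPKM + 0.1) (0 to 2 without a mouse), and the mitochondrial count 2 with DESeq2 and 3 in the joint fit. On log2(FPKM + 1) of all mice, with and without TMM scaling, the nuclear member called was Ndufs6b and not Cox7a1. The sex difference in young mice gave 1 with DESeq2, 3 in the joint fit and 0 to 9 without a mouse. The nuclear interaction of sex and age gave 23 with DESeq2, 18 in the joint fit, 0 at 0.01, with the block and in 3 of 4 limma fits, and 1 to 28 without a mouse; the mitochondrial one gave 0 at 0.01, with the block and in all limma fits, and 0 to 3 without a mouse. The cause of these changes was not tested. The replicate numbers did not pair the mice (correlations from -0.17 to 0.17), and the block gave 45 nuclear and 10 mitochondrial members for age in females. Shares of counts on the mitochondrial members moved to 3.13 to 3.28% in old vehicle and 4.68 to 4.81% in young females without a mouse.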
